A study of Arabidopsis thaliana with 24 samples.

Results

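A set of 62 Affymetrix ATH1 probe sets, of 22746 that are not controls, read lower in every leaf array of the Wassilewskija (Ws) background than in any array of the Columbia backgrounds. Dim and bright below mean lower and higher by this comparison, not by level. A probe set was taken when its highest log2 signal in the 8 Ws and CBF3 arrays was more than 1 below its lowest in the 16 Col, M6PR, Col(gl) and SOS1 arrays. The set was thus chosen by the signals of all 24 arrays, so its difference between Ws and Columbia is given as a description and was not tested. Leaves came from 12 groups of Arabidopsis thaliana with 2 biological replicates each, and each sample pooled leaves of at least 15 seedlings, 20 days after sowing. In the Ws background the groups were CBF3, labelled an overexpressor (OX), and wild-type Ws. In Col-0 they were M6PR OX and wild-type Col, and in the glabrous Col(gl) background SOS1 OX and wild-type Col(gl). Each genotype was grown with NaCl, raised in steps of 50 mM from day 14 to 100 mM and held until sampling 6 days after it began, or without it (0 mM). CBF3 is a transcription factor of the cold response, M6PR a mannose-6-phosphate reductase and SOS1 a sodium/proton antiporter. The labels used here name neither the promoter behind each transgene nor the number of independent lines.

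Ws and Columbia are natural strains (accessions) of one species, and their genomes differ in sequence and in the presence of whole genes. Genes of plant immunity are among the most variable between accessions. NLR proteins are intracellular receptors that detect pathogen molecules, and the TIR-NBS-LRR type carries a TIR signalling domain, a nucleotide-binding site and leucine-rich repeats. NLR genes often lie in clusters together with transposons, the mobile elements whose insertions also differ between accessions. The probes of this array were designed on Columbia sequence. A lower transcript level in Ws, a missing gene and a poorer match of the probes to the Ws sequence cannot be told apart in these values. In whole leaves, fewer cells of a type and less RNA per cell cannot be told apart either.

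Array medians lay between 5.77 and 6.09 log2 units, on a scale that ran from 2.9 to 14.33. The 2 arrays Ws 100 mM replicate 1 and Col 100 mM replicate 1 stood apart in the dap spike-in control, with means over its probe sets of 4.65 and 4.93 against 7.06 to 9.24 in the other 22. Replicate arrays of a group differed least in Col(gl) at 0 mM (SD of the differences over probe sets 0.17) and most in SOS1 at 0 mM (0.63). The description text of the CBF3 samples names Col, and that of the M6PR samples names Ws. With the groups taken from that text, 0 probe sets met the rule, against 62 with the titles and the genetic background. Of the leaf markers 1 of 10 was paired with a probe set, RCA, the activase of the carbon-fixing enzyme Rubisco. It read 13.44 to 13.94 in all 24 arrays. Of the root markers 1 of 7 was paired, PYK10, a root glucosidase, which ranged from 3.68 to 9.92. No trichome, flower or seed marker had a probe set paired with it alone.

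The same rule was applied to each genetic background in turn. In the other direction, 12 probe sets were more than 1 log2 unit brighter in all Ws-background arrays than in all Columbia arrays. For the 8 Col-0 arrays, and for the 8 Col(gl) arrays, 0 probe sets were dim and 0 were bright by that margin against the other 16. With no margin at all, 263 probe sets were dim and 230 bright in Ws. For Col-0 these counts were 0 and 0, and for Col(gl) they were 11 and 2. The 62 probe sets thus make up 0.273% of the array and the 12 bright ones 0.0528%. At the edge of the rule, AT5G56380, which encodes an F-box protein, lay inside with a gap of 1.02, and AT5G42090 lay outside with a gap of 0.999.

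The gap, from the highest Ws-background array to the lowest Columbia array, had a median of 1.74 log2 units and a maximum of 6.53. It exceeded 2 in 25 probe sets, 4 in 7 and 6 in 2. Medians over the Ws-background arrays ran from 3.81 to 9.65, and those over the Columbia arrays from 6.08 to 13.51. The low side was not always near the bottom of the array. In Ws-background leaves 16 probe sets ranked below the 25th percentile of all probe sets, while 17 ranked at the median or above it. A probe set that ranks there, such as 257008_at with 9.35 to 10.50 in Ws background and 12.23 to 13.10 in Columbia, was dimmer but still bright. Detection calls were not used here.

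**Figure D1:**
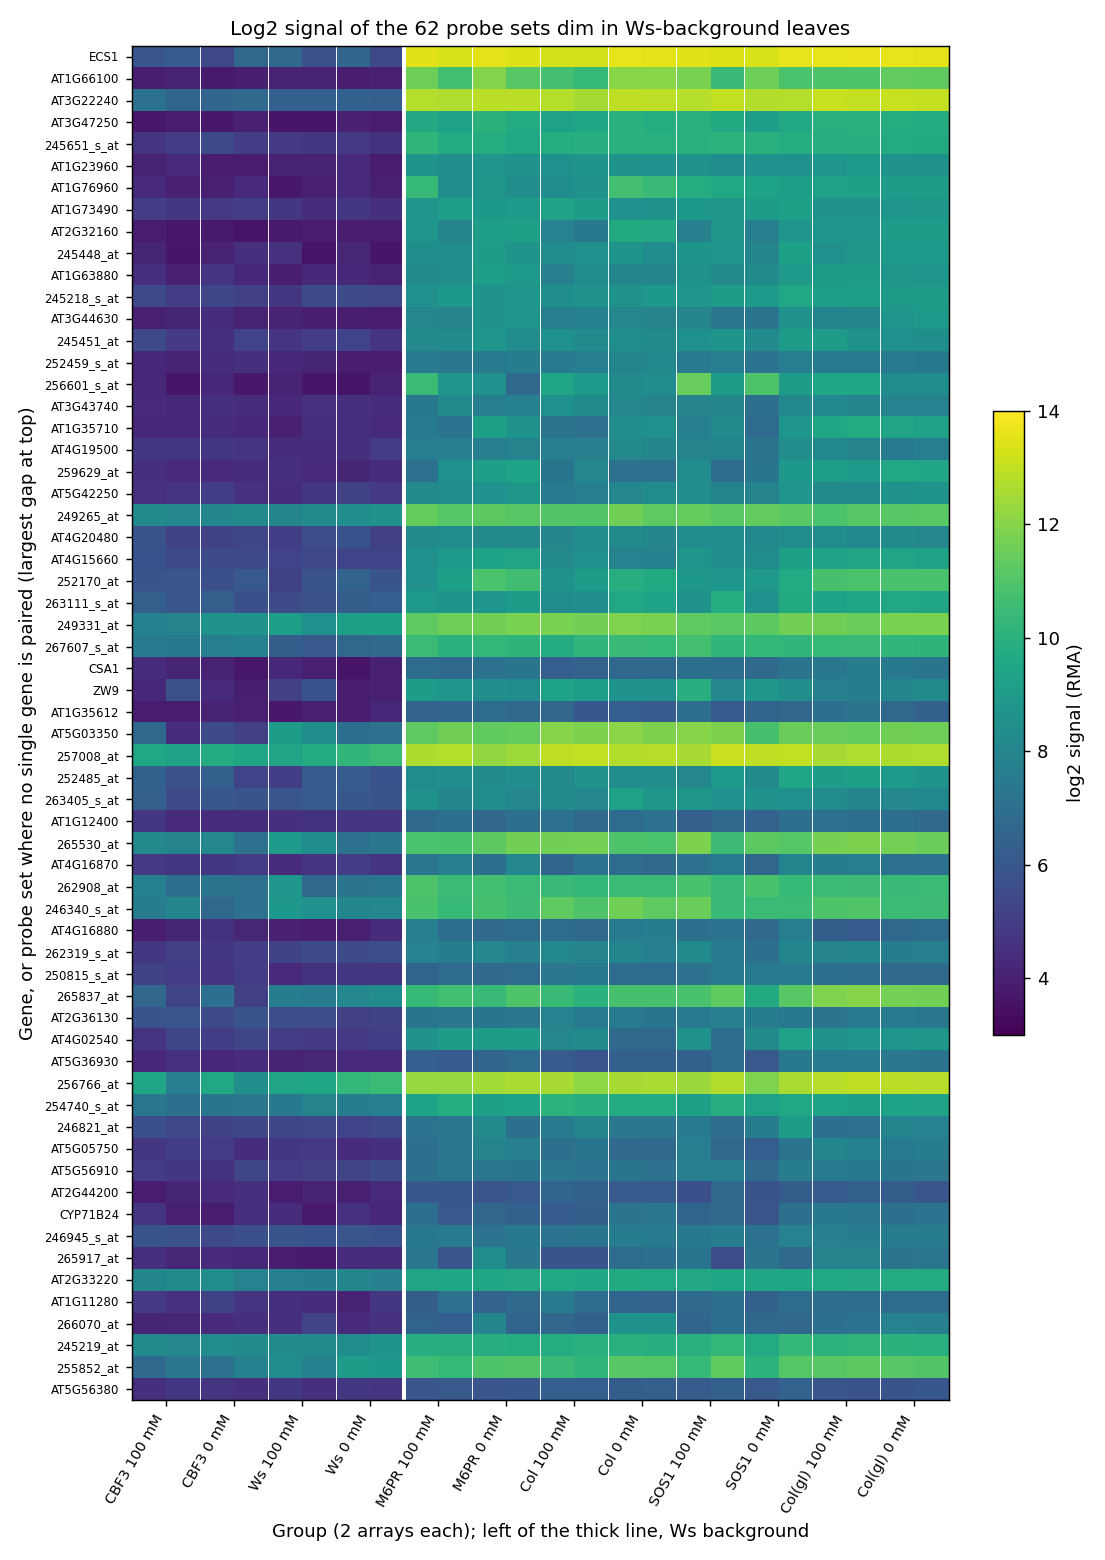
Log2 signal of the 62 probe sets (rows, largest gap at the top) in the 24 arrays (columns, 2 for each genotype and salt level). The 8 arrays left of the thick white line are those of the Ws background, and the widest contrasts are in the top 4 rows, with gaps of 5.11 to 6.53.

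Of the 62 probe sets, 33 were paired with 1 gene, 10 with several and 19 with none in the probe table used. Probe sets with several genes made up 16.1% of the set and 2.21% of the array. Those with the suffix _s_at, which marks probes that match more than 1 transcript, made up 19.4% of the set (12) and 4.11% of the array. The 33 genes comprised 31 protein-coding genes and 2 pseudogenes, and pseudogenes made up 6.83% of all single-gene probe sets. The probe and gene tables give no functions, so the classes below come from general knowledge of these loci and have no share over the array to be read against. A role was given to 29 of the 33. Of the 33, 5 were NLR genes and 5 encoded leucine-rich repeat proteins, lectins or receptor kinases, and each of the other classes held 2 to 4 genes.

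The 5 NLR genes all encode proteins of the TIR-NBS-LRR type. AT1G63880 read 3.94 to 4.65 (median 4.23) in the Ws-background arrays and 7.80 to 9.12 (median 8.56) in the Columbia arrays. AT3G44630 read 3.84 to 4.44 (median 4.02) in Ws background and 7.25 to 8.89 (median 8.03) in Columbia. AT4G19500 read 4.42 to 4.91 (median 4.72) in Ws background and 7.23 to 8.44 (median 7.85) in Columbia. In Ws background all 3 stayed below the array medians, with their medians at the 23.98, 17.85 and 33.8 percentiles of all probe sets. Their Columbia medians were above the array medians. CSA1, first described for its part in shade avoidance, read 3.62 to 4.38 (median 4.04) in Ws background and 6.28 to 7.64 (median 7.03) in Columbia. AT5G36930 read 4.11 to 4.58 (median 4.27) in Ws background and 5.95 to 7.57 (median 6.51) in Columbia. It had the narrowest gap of the 5, at 1.37, and AT1G63880 the widest, at 3.15.

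Among the other receptor-type genes, AT1G35710, for a leucine-rich repeat receptor kinase, read 4.02 to 4.52 (median 4.32) in Ws background and 6.85 to 9.78 (median 8.48) in Columbia. AT3G43740, for a leucine-rich repeat protein, read 4.24 to 4.58 in Ws background and 7.07 to 8.54 in Columbia. AT1G11280, for an S-locus lectin receptor kinase, read 4.08 to 5.13 in Ws background and 6.23 to 7.47 in Columbia. The legume-type lectin gene AT5G03350 differed from these in its spread: 4.45 to 9.08 (median 6.87) in Ws background and 10.81 to 12.07 (median 11.60) in Columbia. Its SD over the Ws-background arrays, 1.61, was the largest of the 62, against a median of 0.26.

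A transposon-like gene and its neighbour were in the set together. AT4G16870, a copia-like retrotransposon that the gene table lists as a pseudogene, read 4.41 to 5.01 in Ws background and 6.55 to 8.08 in Columbia. AT4G16880, for a leucine-rich repeat protein, read 3.90 to 4.63 in Ws background and 6.12 to 7.78 in Columbia. They lie 2 places apart in the gene order and were the only genes of the 33 with another of them as the nearest measured neighbour. Their probe sets stand in a run of 4 consecutive probe set numbers, all in the set, and the outer 2, 245448_at and 245451_at, have no gene paired. The second pseudogene, AT1G35612, read 3.76 to 4.26 in Ws background and 6.01 to 7.25 in Columbia.

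The brightest genes of the set in Columbia leaves included the widest gaps. ECS1, a cell wall protein gene studied for its link to the response to Xanthomonas bacteria, read 5.37 to 6.75 (median 6.04) in Ws background and 13.29 to 13.67 (median 13.51) in Columbia. AT1G66100, for a thionin, a small antimicrobial peptide, read 3.80 to 4.10 (median 3.96) in Ws background and 10.39 to 12.05 (median 11.23) in Columbia. AT3G22240, for a small cysteine-rich protein, read 6.32 to 7.12 (median 6.49) in Ws background and 12.53 to 13.09 (median 12.86) in Columbia. ECS1 and AT3G22240 were among the brightest probe sets of the Columbia arrays, at the 99.91 and 99.65 percentiles. AT3G47250, of the DUF247 family, read 3.67 to 4.02 in Ws background and 9.13 to 10.06 in Columbia.

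Genes with no role given here were in the set as well. AT1G23960 read 3.84 to 4.35 in Ws background and 8.37 to 8.90 in Columbia, a gap of 4.02. AT4G20480 read 5.03 to 5.83 in Ws background and 8.02 to 8.37 in Columbia. AT2G44200 read 3.86 to 4.49 in Ws background and 5.68 to 6.73 in Columbia, so that its lowest Columbia value lay below the array medians.

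**Figure D2:**
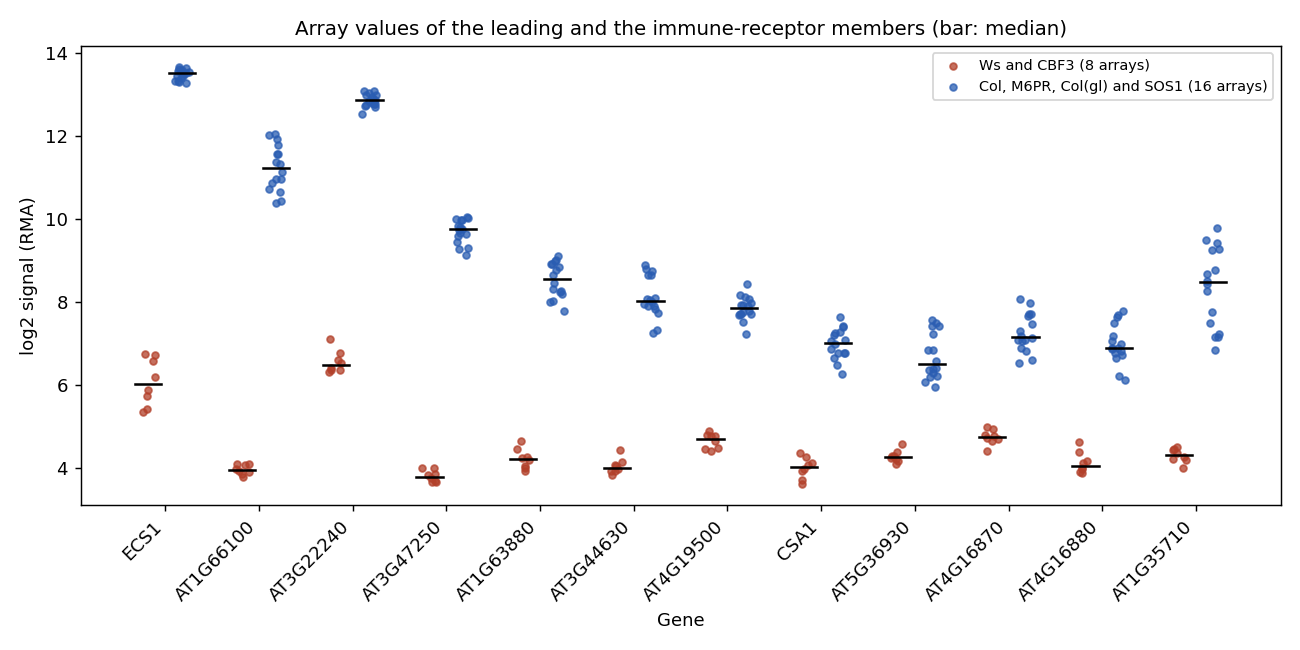
Log2 signal in each array (points) and median (bars) of 12 genes, with the 8 Ws-background arrays left and the 16 Columbia arrays right for each gene. ECS1 lies between 5.37 and 6.75 in Ws background and between 13.29 and 13.67 in Columbia, and AT5G36930 has the narrowest gap of the 12, 1.37.

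Genes outside immunity were also in the set. AT4G15660, for a glutaredoxin, had medians of 5.41 in Ws background and 8.84 in Columbia, and AT5G42250, for an alcohol dehydrogenase, medians of 4.69 and 8.29. AT2G32160, for a methyltransferase, read 3.61 to 3.90 in Ws background and 7.46 to 9.70 in Columbia. CYP71B24, for a cytochrome P450, read 3.80 to 4.71 in Ws background and 5.89 to 7.43 in Columbia. The pair of genes for parts of complexes that every cell uses had narrow gaps: AT1G12400 (TFIIH, of transcription and repair) at 1.58 and AT2G33220 (mitochondrial complex I) at 1.12. AT2G33220 was also among those that stayed bright in Ws background, with 7.67 to 8.32 against 9.44 to 9.76 in Columbia. Genes for protein folding and turnover (the cyclophilin gene AT2G36130, the DnaJ gene AT5G05750, the cystatin gene AT5G56910 and the F-box gene AT5G56380) had gaps of 1.02 to 1.38.

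The nearest measured genes on either side of the 33 in the gene order lay 1 to 11 places away, with a median of 2. Of 64 neighbours that were not themselves in the set, 54 (84.4%) had Ws-background and Columbia means within 0.5 log2 units, close to the 85.6% of all probe sets. A mean more than 1 lower in Ws background was seen in 5 (7.81%), against 2.8% of all probe sets, and in 0 was it more than 1 higher. The 5, each 1 or 2 places away, were AT1G66090 (-2.57) beside the thionin gene, AT2G32150 (-1.60) beside the methyltransferase gene, CYP71B23 (-1.31) beside CYP71B24, AT4G15680 (-1.11) beside the glutaredoxin gene and AT1G76970 (-1.07) beside AT1G76960. These differences are Ws-background mean minus Columbia mean.

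The 12 probe sets with the opposite pattern included AT2G15560, which read 9.46 to 10.40 in Ws background and 4.92 to 5.58 in Columbia. ACLA-2, for a subunit of ATP citrate lyase, read 10.28 to 11.10 in Ws background and 6.88 to 8.59 in Columbia.

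Salt was no term of the rule, but the rule used the arrays of both salt levels, so the salt contrasts are not independent of it. A gene that salt lowered in Columbia, or raised in Ws, by enough to close the gap is not in the set. Large changes could remain where the difference between backgrounds was wide, as in AT2G32160 (-2.0 in Col). Averaged over the 4 Columbia genotypes, 3 of the 62 probe sets passed limma at an adjusted p of 0.05, all lower with salt, against 3.67% of all probe sets called (1.71% lower). AT2G32160 was the one paired with a gene, with a log2 change of -0.75 ± 0.16 (SE, 8 arrays with salt and 8 without, adjusted p = 0.021). The others were 252170_at (-0.81 ± 0.15) and 266070_at (-0.89 ± 0.17). In this average AT2G32160 no longer passed under 9 of the 32 alternative settings, while 252170_at and 266070_at passed under each. The root gene PYK10 passed in this average as well (1.49 ± 0.4), and its part was not tested. The median change was -0.02 over the 62 and -0.03 over all probe sets. The count was 6 without M6PR 100 mM replicate 1, 7 without SOS1 100 mM replicate 1, 8 without SOS1 0 mM replicate 1 and 9 without SOS1 0 mM replicate 2. Calls over all probe sets, 835 in the main fit, also moved, to between 292 and 4388 with 1 array left out.

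Averaged over Ws and CBF3, 1 of the 62 passed, 249331_at, which fell by 0.58 on the log2 scale with salt (SE 0.12, adjusted p = 0.026), against 1.91% of all probe sets called (0.734% lower). The count was 0 without Ws 0 mM replicate 1, Ws 0 mM replicate 2 or CBF3 0 mM replicate 2. It was 2 without CBF3 0 mM replicate 1, Ws 100 mM replicate 2, CBF3 100 mM replicate 1 or either M6PR 100 mM array, and 5 without either SOS1 100 mM array. Calls over all probe sets, 435 in the main fit, ran from 91 to 679 with 1 array left out. The difference between the Ws-background and Columbia salt effects passed for 0 of the 62, against 0.044% of all probe sets. At an unadjusted limma p below 0.05 it was 11 of the 62, against 1242 of the 22746 on the array. The adjusted count of the 62 was 1 without CBF3 100 mM replicate 2 or SOS1 100 mM replicate 1. Over all probe sets, leaving out 1 array gave 1 to 148 calls. The median size of the change with salt, without its sign, was 0.15 for the 62 and 0.11 for all probe sets in Ws background, and 0.13 and 0.12 in Columbia. For the difference between the backgrounds it was 0.26 and 0.12. All 62 ranked above the median of all probe sets in Columbia, while 45 ranked below it in Ws background. The array as a whole is thus not matched to the 62 in level. The part of level in these counts and sizes was not tested.

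**Figure D3:**
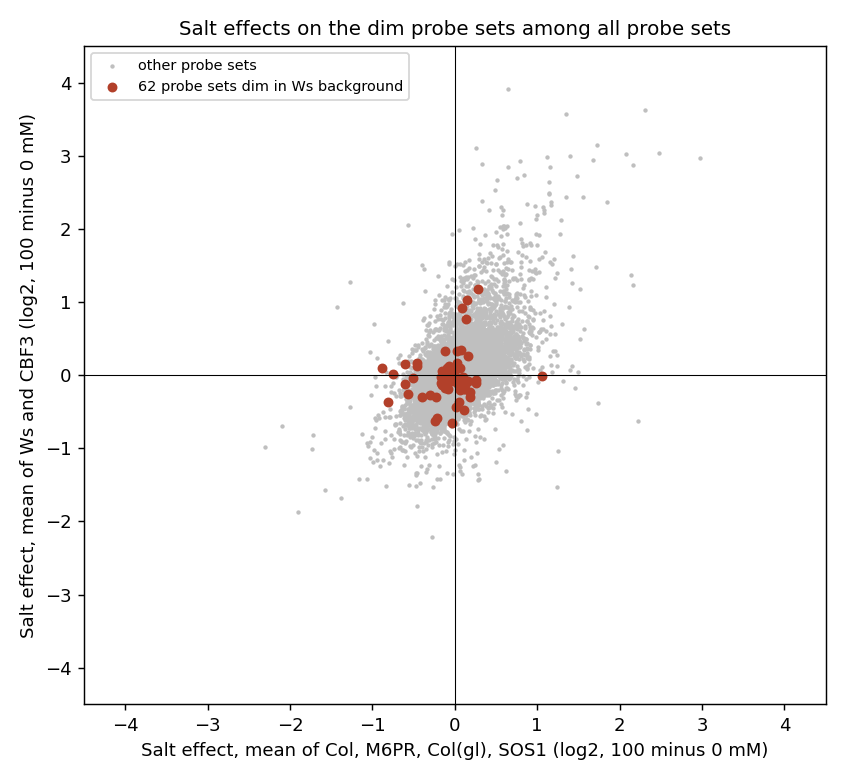
Change with salt (log2, 100 mM minus 0 mM) averaged over the 4 Columbia genotypes (horizontal) and over Ws and CBF3 (vertical) for all probe sets (grey) and the 62 dim in Ws background (red); 2 probe sets lie outside the plotted range of 4.5 on either side. The red points run from -0.89 to 1.06 horizontally and from -0.65 to 1.18 vertically.

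By role, 0 of the 5 NLR genes passed in either average, against 1.91% of all probe sets in Ws background and 3.67% in Columbia. With shares this small, 0 of 5 does not set these genes apart from the array. Their changes with salt ran from -0.13 to 0.32 in Ws background and from -0.51 to 0.02 in Columbia. The lowest was AT3G44630 in Columbia (-0.51 ± 0.15, adjusted p = 0.075). The transposon-like AT4G16870 had changes of -0.18 ± 0.26 in Ws background and 0.13 ± 0.18 in Columbia, and the pseudogene AT1G35612 of -0.20 ± 0.17 and 0.11 ± 0.12; none of these passed. ECS1 was at 0.12 ± 0.28 in Ws background and -0.07 ± 0.19 in Columbia. The NLR genes, AT4G16870 and AT1G35612 had Ws-background medians at the 14.45 to 34.68 percentiles of all probe sets, and no detection call was used. Their Ws-background values thus do not show whether salt changed these transcripts there.

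Taken one genotype at a time, Col had the most calls: 13 of the 62 (21.0%), 3 higher and 10 lower with salt, against 20.9% of all probe sets (10.1% higher and 10.8% lower). AT2G32160 read 7.86 and 7.46 in Col at 100 mM, against 9.70 and 9.63 at 0 mM (change -2.00 ± 0.32, SE, n = 2 arrays each, adjusted p = 0.0012). AT1G76960, with no role given here, read 8.36 and 8.61 at 100 mM, against 10.70 and 10.41 at 0 mM (-2.07 ± 0.40, adjusted p = 0.0031). Neither pair of groups overlapped, but with 2 arrays each this adds little for genes named because they passed. The share of all probe sets without overlap was not taken. The thionin gene AT1G66100 read 10.72 and 10.39 at 100 mM, against 12.05 and 12.04 at 0 mM (-1.49 ± 0.37), and the receptor kinase gene AT1G35710 fell by 1.29 on the log2 scale. AT3G47250 fell by 0.55. Higher with salt were AT4G02540, for a C1-domain protein, by 1.43 ± 0.40 and the RNA-binding protein gene AT1G73490 by 0.60 ± 0.17. The root gene PYK10 moved with this contrast, at 9.92 and 7.62 in Col at 100 mM against 4.30 and 4.22 at 0 mM, and its part in these changes was not tested. The count was 3 without Col 0 mM replicate 1, and 4 without Col 0 mM replicate 2, Col 100 mM replicate 1 or Col 100 mM replicate 2. Without both arrays with a low spike-in it was 3. Over all probe sets, leaving out 1 array moved the 4764 calls to between 1409 and 6173. AT2G32160, AT1G76960 and 266070_at passed under each of the 32 alternative settings, and each other gene named here failed under 4 to 6.

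In the other genotypes few of the 62 passed. In Ws the calls were 257008_at (-0.79 ± 0.17) and 265530_at (1.4 ± 0.35), 2 of 62 against 4.71% of all probe sets (2.62% higher and 2.09% lower). That count was 0 without Ws 0 mM replicate 1, Ws 0 mM replicate 2 or Ws 100 mM replicate 1, the last an array with a low spike-in. It was 4 without Ws 100 mM replicate 2, either CBF3 100 mM array or either SOS1 100 mM array. Over all probe sets, salt in Ws gave 1072 calls, and 123 to 1775 with 1 array left out. In M6PR the call was 252170_at (-1.87 ± 0.30), 1 of 62 against 0.541% (0.378% lower). That count was 0 without M6PR 0 mM replicate 1 or M6PR 100 mM replicate 1, and 2 without M6PR 100 mM replicate 2 or either SOS1 0 mM array. All probe sets gave 123 calls in M6PR, and 11 to 375 with 1 array left out. In CBF3, Col(gl) and SOS1, 0 of 62 passed limma, against 0.00879%, 0.132% and 0% of all probe sets. At an unadjusted p below 0.05 the counts were 4, 5 and 3 of 62, against 743, 1205 and 1694 of 22746. Without SOS1 0 mM replicate 2 the adjusted SOS1 count of the 62 was 7, and without SOS1 100 mM replicate 1 it was 1. Over all probe sets, leaving out 1 array gave 0 to 3787 calls in SOS1. AT2G32160 had changes of 0.08 in CBF3, -0.80 in M6PR, -0.29 in Col(gl) and 0.07 in SOS1, each ± 0.32, and none passed.

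Differences between the salt effects of single genotypes were tested next. Salt in Col minus salt in Col(gl) passed for 1 of 62, AT1G76960, against 3.25% of all probe sets (1.7% lower), and salt in Col minus salt in M6PR passed for the same gene, against 6.08% (3.26% lower). These comparisons share the Col arrays. The root gene PYK10 passed in the first (4.63 ± 1.12) and not in the second (2.93 ± 1.12), and its part was not tested. AT1G76960 read 9.31 and 9.24 in Col(gl) at 100 mM against 9.07 and 9.10 at 0 mM, and 10.38 and 8.43 in M6PR at 100 mM against 8.81 and 8.38 at 0 mM. Salt in SOS1 minus salt in Col(gl), and salt in CBF3 minus salt in Ws, passed limma for 0 of 62, against 0% and 0.0703% of all probe sets. At an unadjusted p below 0.05 the counts were 0 and 3 of 62, against 672 and 2577 of 22746. The first adjusted count of the 62 was 1 without SOS1 0 mM replicate 2, and the second 1 without CBF3 100 mM replicate 1. Over all probe sets, leaving out 1 array gave 0 to 661 and 3 to 474 calls.

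Within the Ws background, CBF3 and Ws differed in 9 of the 62 averaged over salt levels (14.5%, 2 higher and 7 lower in CBF3), against 10.2% of all probe sets (4.72% higher and 5.51% lower). The lectin gene AT5G03350 read 6.78 and 4.45 in CBF3 at 100 mM and 5.52 and 5.09 in CBF3 at 0 mM. In Ws it read 9.08 and 8.45 at 100 mM and 6.96 and 7.11 at 0 mM. All 4 CBF3 arrays were below all 4 Ws arrays, with a log2 difference of -2.45 ± 0.34 (SE, adjusted p = 0.00025). The small cysteine-rich gene AT3G22240 was higher in CBF3 by 0.39 ± 0.11 (adjusted p = 0.029), but no longer passed under 9 of the 32 alternative settings. None of the 5 NLR genes was among the 9, and the other 7 probe sets had no gene or several paired. The count was 14 without either SOS1 0 mM array, 8 in the 0 mM arrays alone (6.79% of all probe sets) and 3 in the 100 mM arrays alone (3.73%).

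The Columbia wild types differed from each other in more of the set than the transgenic lines did from their wild types. The same held over all probe sets: 17.7% were called for Col(gl) against Col, 10.2% for CBF3, 6.77% for M6PR and 9.03% for SOS1. Col(gl) and Col differed in 17 of the 62 (27.4%), 13 higher and 4 lower in Col(gl), against 17.7% of all probe sets, of which 7.6% were higher and 10.1% lower. Of the 13, 3 were NLR genes, a class assigned by hand that has no share over the array to be read against. CSA1 read 7.41 and 7.64 in Col(gl) at 100 mM and 7.43 and 7.29 at 0 mM, against 6.28 and 6.49 in Col at 100 mM and 6.66 and 6.77 at 0 mM. The difference was 0.89 ± 0.13 (SE, 4 arrays each, adjusted p = 0.00022), with no overlap. AT5G36930 was higher by 1.2 ± 0.20 and AT1G63880 by 0.87 ± 0.17. AT3G44630 (0.53 ± 0.22) and AT4G19500 (-0.10 ± 0.18) did not pass.

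The receptor kinase gene AT1G35710 read 9.51 and 9.78 in Col(gl) at 100 mM and 9.42 and 9.29 at 0 mM, against 7.23 and 7.16 in Col at 100 mM and 8.45 and 8.51 at 0 mM (1.66 ± 0.29, adjusted p = 0.00089). The glutaredoxin gene AT4G15660 was higher in Col(gl) by 1.28 ± 0.17, AT4G02540 by 1.31 ± 0.28 and the pseudogene AT1G35612 by 0.57 ± 0.17. Lower in Col(gl) were AT4G16880 (-0.72 ± 0.19), the F-box gene AT5G56380 (-0.38 ± 0.11) and the TRAF-like gene ZW9 (-1.01 ± 0.33). Of 59 genes of immune signalling, 3 were paired with a probe set of their own. SAG101, a partner of the NLR signalling hub EDS1, was higher in Col(gl) by 1.0 ± 0.15 and the kinase gene BIK1 by 0.71 ± 0.23, while the receptor gene EFR did not pass. The root gene PYK10 moved with this contrast too (-2.52 ± 0.56), and its part was not tested. The count of the 62 was 11 without Col 0 mM replicate 2 or Col 100 mM replicate 1, and 10 without Col(gl) 0 mM replicate 1 or Col(gl) 100 mM replicate 2. At 0 mM alone it was 11 (14.1% of all probe sets) and at 100 mM alone 13 (10.5%). Over all probe sets there were 4029 calls, and 2805 to 4716 with 1 array left out. CSA1, AT5G36930, AT1G63880 and AT1G35710 passed under each of the 32 alternative settings, while ZW9 no longer passed under 15.

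**Figure D4:**
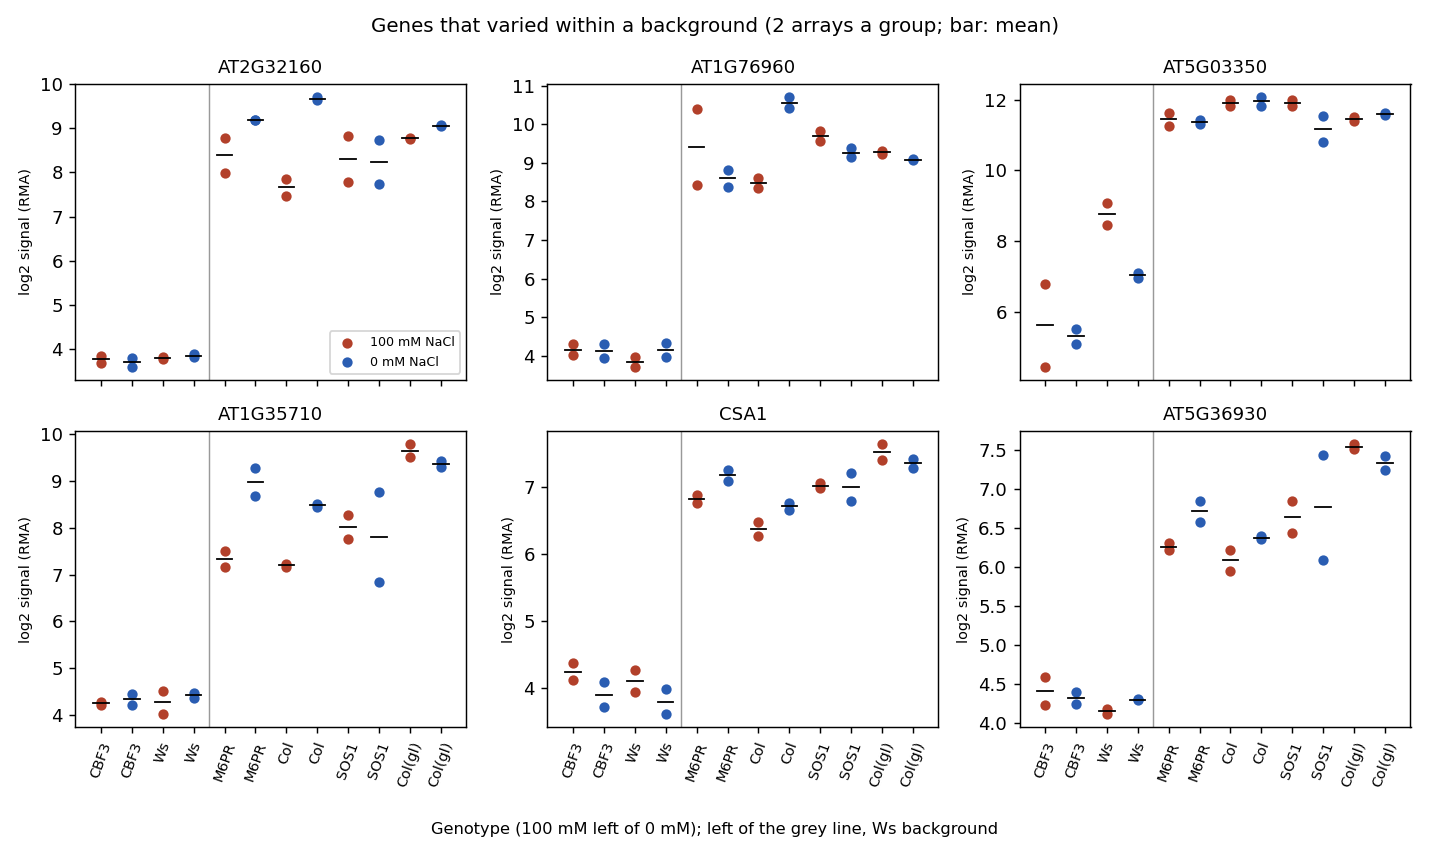
Log2 signal of 6 genes in each array (points) and the mean of each group (bars), with 100 mM left of 0 mM for each genotype and the Ws background left of the grey line. AT2G32160 and AT1G76960 are lower in Col at 100 mM than at 0 mM, AT5G03350 is lower in CBF3 than in Ws, and CSA1 and AT5G36930 are higher in Col(gl) than in Col.

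M6PR and Col differed in 5 of the 62 (8.06%), all higher in M6PR, against 6.77% of all probe sets (3.22% higher). This comparison shares the Col arrays with the one of Col(gl) and Col, so the values stand side by side and are not independent. AT4G02540 was 1.48 ± 0.28 higher in M6PR, AT4G15660 0.96 ± 0.17, AT1G63880 0.64 ± 0.17, AT5G42250 0.60 ± 0.17 and CSA1 0.45 ± 0.13. Of these, AT5G42250 no longer passed under 19 of the 32 alternative settings, CSA1 under 18 and AT1G63880 under 7. For AT4G02540 the Col arrays at 0 mM, at 6.81 and 6.66, lay below all the other Columbia arrays, and M6PR read 9.0 and 9.03 at 0 mM. Counts were 9 in the 0 mM arrays alone (10.3% of all probe sets) and 0 in the 100 mM arrays alone (0.528%). The count was 2 without either Col 0 mM array, M6PR 0 mM replicate 2 or Col 100 mM replicate 1. It was 3 without M6PR 0 mM replicate 1, Col 100 mM replicate 2 or any 1 array of Ws 0 mM, Col(gl) 0 mM or Col(gl) 100 mM. It was 10 without either SOS1 0 mM array and 11 without either SOS1 100 mM array. Over all probe sets there were 1539 calls, and 598 to 2161 with 1 array left out.

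SOS1 and Col(gl) differed in 9 of the 62 (14.5%), 3 higher and 6 lower in SOS1, against 9.03% of all probe sets (3.56% higher and 5.47% lower). AT1G35710 read 7.77 and 8.28 in SOS1 at 100 mM and 6.85 and 8.77 at 0 mM, below all 4 Col(gl) arrays (-1.59 ± 0.29, adjusted p = 0.0034). The NLR gene AT5G36930 was also lower (-0.73 ± 0.20), as was AT4G15660 (-0.70 ± 0.17). AT4G16880 was higher by 0.71 ± 0.19. The DnaJ chaperone gene AT5G05750 was lower in SOS1 (-0.76 ± 0.22), and higher in Col(gl) than in Col (0.77 ± 0.22). In SOS1 against Col(gl), AT5G05750 no longer passed under 20 of the 32 settings, AT5G36930 under 11 and AT4G16880 under 8. SAG101 was lower in SOS1 (-1.03 ± 0.15) and PYK10 higher (2.98 ± 0.56), and the part of root RNA was not tested. This comparison shares the Col(gl) arrays with that of Col(gl) and Col. The count was 3 without Col(gl) 0 mM replicate 1 or either Col(gl) 100 mM array, 4 without Col(gl) 0 mM replicate 2, 18 without SOS1 0 mM replicate 2 and 14 without SOS1 100 mM replicate 1. In the 0 mM arrays alone it was 2 (1.24% of all probe sets), and in the 100 mM arrays alone also 2 (3.13%). Over all probe sets there were 2054 calls, and 967 to 5042 with 1 array left out.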

How the data were processed

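Expression was measured on 24 Affymetrix ATH1 arrays. Per the submitters' processing notes, the authors used GCOS and RMA to make the deposited log2 values, with no version named. The log2 scale was read from the range of the deposited values, which were used as they stand. Because RMA equalizes the arrays, a shift common to most transcripts would be lost. Groups came from sample titles. Of 22810 probe sets, 64 controls were left out. Genes came from a platform table and were renamed by gene ID through a RefSeq table (TAIR10.1), which matched all 33 single-gene members; coordinates are not given because no build is stated for the probes, and the table was used for gene order only. The fixed keyword classes ran on symbols and synonyms alone and placed 1 of the 33 (cytochrome P450, 0.178% of all single-gene probe sets), so roles were assigned by hand afterwards.

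Contrasts were fitted with limma 3.58.1 (R 4.3.3) on a model with a mean for each of the 12 groups, 24 arrays and 12 residual degrees of freedom, two-sided moderated tests, Benjamini-Hochberg over 22746 probe sets, threshold 0.05. There were 13 planned contrasts, and 4 differences between salt effects and the separate salt levels were added after seeing the data. The script was tested on simulated data. Replicates are separate samples per the labels, and 2 per group limit the precision. Differences between the arrays of a group correlated between groups at -0.36 to 0.70 (66 pairs, 21 above 0.1), so replicate numbers were not treated as pairs. The probe sets and lists were chosen with earlier results of these data known. The rule for named genes took single-gene members: the 15 widest gaps, up to 6 per role, up to 8 per salt contrast and 4 per line or wild-type contrast that passed (by p), 3 on each side of the margin, and neighbours in the gene order; other members that passed are named in places. Alternatives were a replicate block, centred arrays, quantile normalization, a filter on the dimmest 40%, array weights, separate fits, a trend, and leaving out arrays.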

Additional observations from a re-analysis of the deposited data

Results flagged for a closer look

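The change with salt in AT1G76960 differed between Columbia genotypes by a test of the difference itself. It was lower in Col than in Col(gl) (difference -2.26 ± 0.57, SE, n = 2 arrays per group, limma adjusted p = 0.043) and lower in Col than in M6PR (difference -2.88 ± 0.57, adjusted p = 0.012). Changes in the single genotypes were -2.07 in Col, 0.19 in Col(gl) and 0.81 in M6PR, where the arrays at 100 mM read 10.38 and 8.43. The first difference passed under 16 of 32 alternatives and the second under 29; neither passed without the 2 arrays of low spike-in (-2.13, adjusted p = 0.15, and -2.76, adjusted p = 0.053). The first also failed without any 1 array of Col, Col(gl), Ws 0 mM, CBF3 0 mM or M6PR 0 mM and with separate fits, and the second without Col 0 mM replicate 1 or M6PR 0 mM replicate 2. These differences were tested after the data were seen. The root gene PYK10 also passed limma for Col minus Col(gl) (4.63 ± 1.12, adjusted p = 0.038). For Col minus M6PR it did not (2.93 ± 1.12), and its part was not tested.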

How the results depend on the processing

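The number of probe sets in the rule was 102 at a margin of 0.5, 25 at a margin of 2 and 0 with groups from the description text. Without 1 array each it ran from 62 to 69. Leaving out an array can only keep or widen a gap, so that count could not fall below 62 and does not show stability. Counts of the 62 that passed limma (adjusted p) moved as follows. With array weights they were 6 for salt in Ws, 23 in Col, 2 in M6PR, 4 in Col(gl) and 6 in the Ws background, 8 for M6PR against Col and 31 for Col(gl) against Col. Salt in Col minus salt in Col(gl) then gave 20 and minus salt in M6PR 6. Without the 2 arrays of low spike-in they were 0 for salt in Ws, 3 in Col, 2 for M6PR against Col, and 0 for both differences of salt effects with Col. With separate fits they were 0 for salt in Ws, in the Ws background and for Col minus Col(gl). Salt in the Ws background gave 3 with the replicate block, where Col minus M6PR gave 2; the block moved no other count of the 62 by over 1.5 times. It also gave 2 with centred arrays, quantile normalization, the filter or a trend. Salt in the Columbia backgrounds gave 7 with centred arrays and 5 after quantile normalization. M6PR against Col gave 8 after quantile normalization and 3 with a trend, and 9 and 0 at 0 and 100 mM alone. Col minus Col(gl) gave 2 with centred arrays, quantile normalization or the filter, and Col minus M6PR gave 2, 3 and 3. At single salt levels, CBF3 against Ws gave 3 at 100 mM, SOS1 against Col(gl) 2 at each, and Col(gl) against Col 11 at 0 mM. Leaving out 1 array gave 0 to 4 for salt in Ws, 0 to 0 in CBF3, 3 to 18 in Col, 0 to 2 in M6PR, 0 to 0 in Col(gl) and 0 to 7 in SOS1. It gave 0 to 5 for salt in the Ws background, 2 to 9 in Columbia and 0 to 1 for their difference. Line contrasts ran from 6 to 14 (CBF3), 2 to 11 (M6PR), 3 to 18 (SOS1) and 10 to 20 (Col(gl) against Col). Differences of salt effects ran from 0 to 4 (Col minus Col(gl)), 0 to 8 (Col minus M6PR), 0 to 1 (SOS1 minus Col(gl)) and 0 to 1 (CBF3 minus Ws). Ranges over all probe sets are given with each contrast above, except for these. Salt in CBF3 gave 0 to 83 and salt in Col(gl) 0 to 48. Col minus Col(gl) gave 95 to 1369 and Col minus M6PR 150 to 3860. The causes were not tested, other than that fewer arrays enter some settings. Of 62 calls of a probe set in a contrast, repeated over the alternatives, 1670 results still passed, 314 no longer did, and none changed sign. Signal over background limits the values of the dim side, most of all where they lie low on the scale. In Ws background 17 of the 62 ranked at the median of all probe sets or above it.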
